A study of Mus musculus with 21 samples.

Results

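The transcriptomes of *Lmo2*-targeted and *Zbtb1*-targeted lymphoid progenitors (LPs) were set directly against each other, library against library. The comparison used 6 of the 15 QuantSeq libraries, out of 21 samples in the whole study: 3 labelled sgLmo2 and 3 labelled sgZbtb1. Its genes were all those with a mean above 1 TPM over these 6 libraries, 11553 of the 55421 in the table. The genes nearest this limit had a mean of 1.00017 TPM inside it and 0.9995 TPM outside it.

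All libraries came from an *Ebf1*-deficient LP line of C57BL6/J mice, kept on OP9 stromal cells with SCF, IL-7 and Flt3 ligand and without Notch stimulation. The cells carried Cas9 with a GFP marker, and a retrovirus with an hNGFR marker delivered a pool of 2 sgRNAs against *Lmo2*, against *Zbtb1* or, in the sgControl libraries, against luciferase. GFP+hNGFR+ cells were sorted 5 days after the sgRNAs were introduced, so each library was a pool of cells with different edits, not a clone. The groups therefore shared the *Ebf1* deficiency, Cas9, the culture and the sort, and differed in the gene targeted. The paper calls the 3 libraries of each group biological replicates. The p-values below measure the spread between these libraries.

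LPs are multipotent cells of the bone marrow that can still enter the T or B lineage, and Ebf1 is a factor needed to enter the B lineage. Lmo2 is an adaptor protein that binds no DNA itself and joins E proteins, Tal1 or Lyl1, Ldb1 and GATA factors into one complex on DNA. Zbtb1 belongs to the BTB zinc finger family, binds DNA and is needed for lymphoid development. The study examines Zbtb1 as a partner of Lmo2, and the direct comparison asks how far the transcriptomes differ when one or the other is targeted.

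QuantSeq reads each mRNA once, near its 3′ end. The level of a gene is its share of the reads of a library, scaled to the same total in every library (CPM), which the authors call TPM although it is not divided by gene length. The 6 libraries held between 1768559 and 2091514 reads, recovered from the values, and 3 reads, taken as the floor of measurement, came to between 1.43 and 1.70 TPM. This floor, and the intervals below, account for counting error alone. Mitochondrial genes took 6.09% to 6.36% of the reads in the sgLmo2 libraries and 5.42% to 6.48% in the sgZbtb1 libraries. Pearson's r of the log2 values across genes was 0.955 to 0.966 between libraries of a group and 0.946 to 0.956 between libraries of different groups, and the genes are not independent of each other. The chi-square per degree of freedom between replicates was 2.57 to 3.05, above what sampling alone gives. In bulk libraries such as these, fewer cells of a type and less RNA per cell cannot be told apart.

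The mRNA of the targeted genes was read first. *Lmo2* (chromosome 2, 103957986 to 103981878) gave 8.48, 24.4 and 15.9 TPM under the label sgLmo2 and 15.6, 11.95 and 21.6 TPM under the label sgZbtb1. The groups overlapped (limma adjusted p = 0.928, with a log2 fold change of 0.09 and a standard error of 0.32). *Zbtb1* (chromosome 12, 76370266 to 76396950) gave 50.3, 56.2 and 59.2 TPM under the label sgLmo2 and 94.4, 113 and 109 TPM under the label sgZbtb1, so the targeted mRNA was higher under its own sgRNAs (limma adjusted p = 4.44e-06, with a log2 fold change of 0.92 and a standard error of 0.15). The positions of the edits were not mapped here, and a count of 3′ tags does not measure whether the protein was lost. In the study, immunoblots of such cells showed each targeted protein depleted, which runs as the labels say. Neither gene thus passed the test as lower under its own sgRNAs, and every direction below is between the libraries labelled sgZbtb1 and those labelled sgLmo2. *Ebf1* mRNA was present in both, at 249, 310 and 303 TPM in sgLmo2 and 221, 209 and 221 TPM in sgZbtb1 (log2 fold change -0.40, standard error 0.10, limma adjusted p = 0.00706), so its 3′ reads do not show the deficiency of the line. This call was lost without sgLmo2 replicate 2 or 3 (adjusted p up to 0.07825).

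The markers of an LP were also read. *Flt3*, the receptor of Flt3 ligand, was at 227 to 240 TPM in sgLmo2 and 198 to 241 TPM in sgZbtb1, and *Kit*, the SCF receptor, at 14.1 to 25.4 and 6.87 to 16.2 TPM. Neither passed the test (limma adjusted p = 0.5435 and 0.171). The summed level of 20 OP9 stromal markers was 7.67 to 18.6 TPM in the sgLmo2 libraries and 3.44 to 6.15 TPM in the sgZbtb1 libraries, with the collagen gene *Col3a1* and the matrix genes *Dcn*, *Lum* and *Postn* at 0 in all 6. Of these 20 genes, 1 was high enough to be tested. It was lower in sgZbtb1 but did not pass (log2 fold change -1.36, limma adjusted p = 0.122), except without sgZbtb1 replicate 1. The part of stromal reads in the results below was not tested. Among 12 erythroid markers, summed to 750 to 911 TPM and 671 to 875 TPM, the globin genes *Hbb-bs*, *Hba-a1* and *Hba-a2* were at 0, while reads were assigned to *Hbb-bt* (71.2 to 113 TPM and 112 to 168 TPM; log2 fold change 0.62, limma adjusted p = 0.00269), a near copy of *Hbb-bs* whose counts are therefore uncertain. Without sgZbtb1 replicate 1 the adjusted p of *Hbb-bt* was 0.131. Of the 12 markers, 9 had no read in sgLmo2, 8 had none in sgZbtb1 and 2 were tested, so the sums rest on few genes. *Hbb-bt* held the smaller part of them, and the other tested gene had a log2 fold change of -0.15.

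In limma, on log2(TPM + 1), 641 of the 11553 genes (5.55%) had a Benjamini-Hochberg adjusted p under 0.05. Of these, 396 (3.43% of the genes tested) were lower and 245 (2.12%) were higher in the libraries labelled sgZbtb1 than in those labelled sgLmo2. These shares are the background against which the counts of each gene group are read. For counts at an unadjusted p under 0.05 the background is 2080 of the 11553 genes. The lower genes also changed more: 154 were lower by a log2 fold change beyond 1 and 38 were higher by as much. The study calls a gene differentially expressed (a DEG) where its unadjusted p is under 0.05, it changes by more than 1 on the log2 scale and one of its group means exceeds 10 TPM. There were 180 DEGs (1.56% of the genes tested), 34 higher and 146 lower. The 3 libraries of each group did not overlap in 2518 genes (21.8%), among them 606 of the 641. For single genes the exact two-sided permutation test over 3 against 3 libraries cannot give a p under 0.1, and for each gene described below as not overlapping it gave 0.1. The count of 641 moved with the libraries used, to 379 without sgLmo2 replicate 3 and 384 without sgZbtb1 replicate 3, but none of the 641 genes changed direction when any library was left out.

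**Figure D1:**
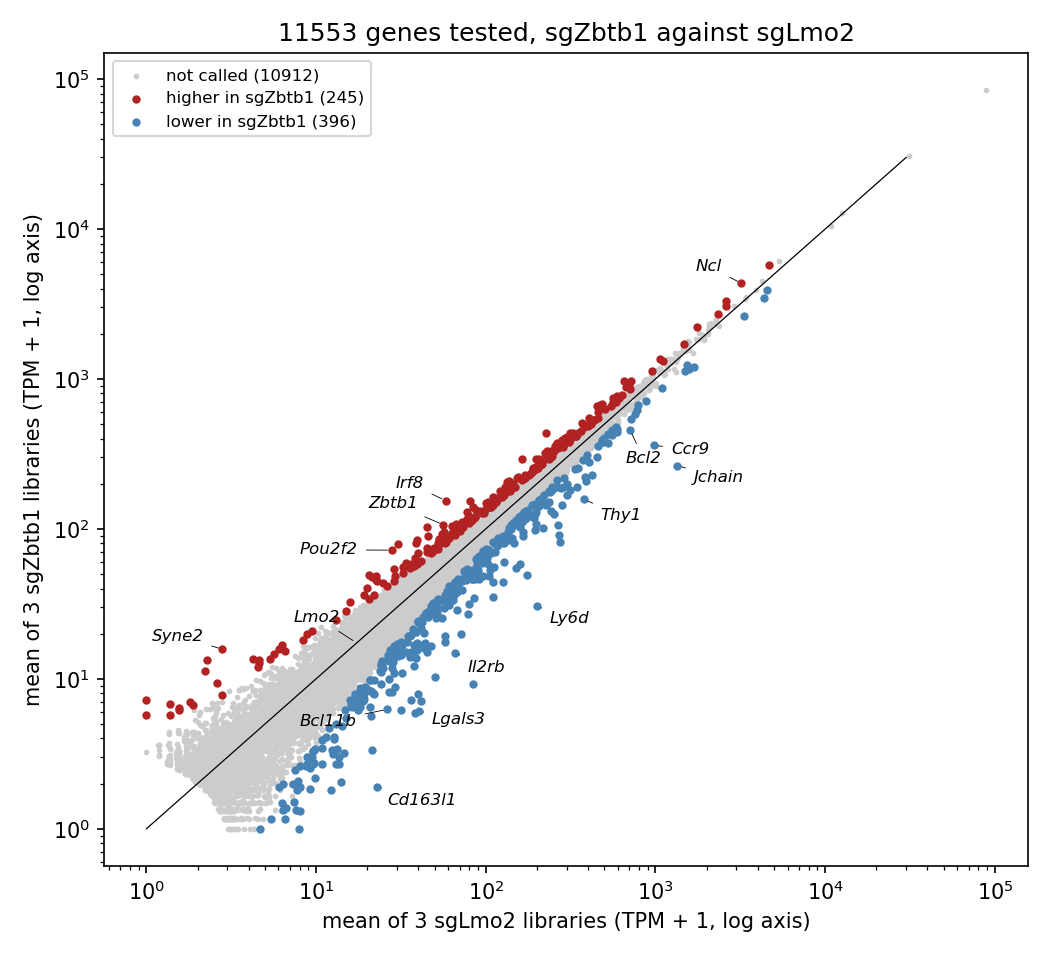
Mean level of each of 11553 genes in the 3 sgLmo2 libraries (x axis) and the 3 sgZbtb1 libraries (y axis), both as TPM + 1 on log axes, with the line of equal means. The 396 genes lower in sgZbtb1 (blue) reach farther from the line than most of the 245 higher ones (red), and *Lmo2* (grey) lies near it.

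The sgControl libraries entered neither the rule nor the test and serve as a level. On the log2 scale, the sgControl mean lay between the means of the sgLmo2 and sgZbtb1 libraries in 482 of the 641 genes. It was nearer sgLmo2 in 347 of the 396 lower genes and in 216 of the 245 higher genes. It was nearer sgZbtb1 in 49 lower and 29 higher genes. *Irf8*, *Il6ra*, *Pou2f2*, *Dntt* and *Xbp1* were of this second kind.

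The first group examined was the factors of the T lineage and the Notch pathway, through which thymic stroma drives progenitors into the T lineage. Of 20 such genes 15 were high enough to be tested. Of these, 3 (20.0%) passed, all lower in sgZbtb1, where the background of lower genes was 3.43%. *Bcl11b* (ENSMUSG00000048251; chromosome 12, 107910403 to 108003602), the factor that seals commitment to the T lineage, was at 29.4, 18.1 and 28.5 TPM in the sgLmo2 libraries and at 5.59, 4.30 and 5.89 TPM in the sgZbtb1 libraries. All 3 sgZbtb1 libraries were below all 3 sgLmo2 libraries, with 4.81 times less on the ratio of mean TPM (limma adjusted p = 1.29e-05, log2 fold change -2.05, standard error 0.35). The sgControl libraries, at 18.8 to 24.4 TPM, overlapped the sgLmo2 range.

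*Runx1*, a DNA-binding factor needed for blood formation and for early T-cell genes, was at 351, 292 and 290 TPM in sgLmo2 and 178, 186 and 175 TPM in sgZbtb1 without overlap (log2 fold change -0.78, standard error 0.10, limma adjusted p = 1.26e-08). *Tox*, a nuclear factor of T-cell development, was at 73.5, 105 and 130 TPM against 67.0, 74.6 and 73.2 TPM. Its groups overlapped, and its limma adjusted p of 0.0424 rose above 0.05 under 5 of the 6 omissions of a library (up to 0.4055, all but sgLmo2 replicate 1).

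The other genes of this group that the paper examines did not pass the test. *Gata3*, a zinc finger factor of early T cells, was at 40.1, 35.2 and 34.5 TPM in sgLmo2 and 40.8, 43.0 and 24.1 TPM in sgZbtb1 (limma adjusted p = 0.914). *Tcf7*, which encodes TCF1, the first factor that Notch induces, had 0, 1 and 6 reads in the sgLmo2 libraries and 3, 1 and 1 reads in the sgZbtb1 libraries. All but 1 of the 6 were at or under the floor, so a fitted fold change of *Tcf7* measures little, and a difference was not detectable at this depth (limma adjusted p = 0.988). *Bcl11a*, a relative of *Bcl11b* needed by lymphoid progenitors, was at 18.7, 26.9 and 17.5 TPM in sgLmo2 and 23.5, 32.5 and 19.1 TPM in sgZbtb1 (log2 fold change 0.23, standard error 0.26, limma adjusted p = 0.704). Both groups were below the 38.1 to 57.3 TPM of the sgControl libraries, a comparison not tested in this fit. The median log2 fold change of the 15 genes was -0.19, beside -0.04 over all genes tested, and 4 of the 15 were positive. The Notch receptor gene *Notch3*, named after its values were seen, went the other way from the called genes, with 0.565, 0.488 and 0 TPM in sgLmo2, all under the floor, and 3.35, 2.39 and 4.42 TPM in sgZbtb1 (limma adjusted p = 0.0962).

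T-cell surface and receptor signalling genes had the lowest median among the lists with more than 2 tested members. Of 22 genes 17 were tested, and 9 passed, all lower in sgZbtb1, where the background of lower genes was 3.43%. The median log2 fold change of the 17 was -1.10. Of the other 8, 4 had a positive log2 fold change, and 2 of these, named after their values were seen, had an unadjusted p under 0.05 without overlap. The adhesion receptor gene *Cd44* was at 116, 104 and 89.3 TPM in sgLmo2 and 145, 125 and 121 TPM in sgZbtb1 (limma adjusted p = 0.112), and the adaptor gene *Lcp2* at 2.26, 2.44 and 0 TPM against 5.59, 3.82 and 5.89 TPM (limma adjusted p = 0.129). When a library was left out, 6 to 9 members passed, again all lower.

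The most abundant of them was *Thy1* (ENSMUSG00000032011; chromosome 9, 44043384 to 44048579), a surface glycoprotein of T cells and progenitors, at 364, 397 and 374 TPM in sgLmo2 and 195, 137 and 136 TPM in sgZbtb1. All 3 sgZbtb1 libraries were below all 3 sgLmo2 libraries, and *Thy1* had a limma adjusted p of 2.76e-16 (log2 fold change -1.29, standard error 0.11). *Cd7*, an immunoglobulin family receptor of T and NK cells, was at 13.6, 33.7 and 13.7 TPM in sgLmo2 and at 1.12, 0.956 and 4.91 TPM in sgZbtb1, where 2 of the libraries were under the floor (log2 fold change -2.75, standard error 0.45, limma adjusted p = 6.48e-06). *Cd163l1*, a scavenger receptor of gamma delta T cells, had the largest decrease of all genes that the naming rule considered, from 22.6, 20.5 and 22.5 TPM to 2.23, 0 and 0.491 TPM (log2 fold change -3.76, standard error 0.47, limma adjusted p = 3.33e-09). In sgZbtb1 *Cd163l1* was under the floor in 2 libraries, and its fold change depends on the pseudocount (-5.41 with 0.1). *Cd2*, an adhesion receptor, was at 7.92, 11.2 and 18.6 TPM against 1.68, 1.91 and 2.46 TPM (limma adjusted p = 0.00106).

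The kinases and adaptors that act below the T-cell receptor were in the same set. *Txk*, a Tec family kinase, was at 35.1, 50.8 and 62.5 TPM in sgLmo2 and 10.1, 13.4 and 4.42 TPM in sgZbtb1 (log2 fold change -2.37, standard error 0.29, limma adjusted p = 1.58e-09). *Lck*, the Src kinase of the receptor, was at 73.5, 77.7 and 95.9 TPM against 56.4, 40.2 and 39.8 TPM (log2 fold change -0.85, limma adjusted p = 0.000213). *Lat*, an adaptor of the receptor, also passed, at 13.6, 21.5 and 24.1 TPM against 12.3, 8.13 and 5.89 TPM (limma adjusted p = 0.0369). *Ctla4*, an inhibitory receptor, was at 3.39, 4.89 and 4.93 TPM against 0, 0.478 and 0 TPM (limma adjusted p = 0.0148). Every sgZbtb1 library of *Ctla4* was under the floor, and its call was lost with a pseudocount of 0.1. Its log2 fold change was -2.23, and -4.63 at its lowest in an alternative fit. *Lat* and *Ctla4* lost their calls in 4 and 3 of the 6 omissions of a library. *Cd3e* and *Cd3g*, chains of the receptor complex, and the co-receptor gene *Cd6* had no read in any of the 6 libraries. The 4 genes *Lck*, *Cd2*, *Lat* and *Ctla4* lie outside the naming rule and were named after their values were seen.

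**Figure D2:**
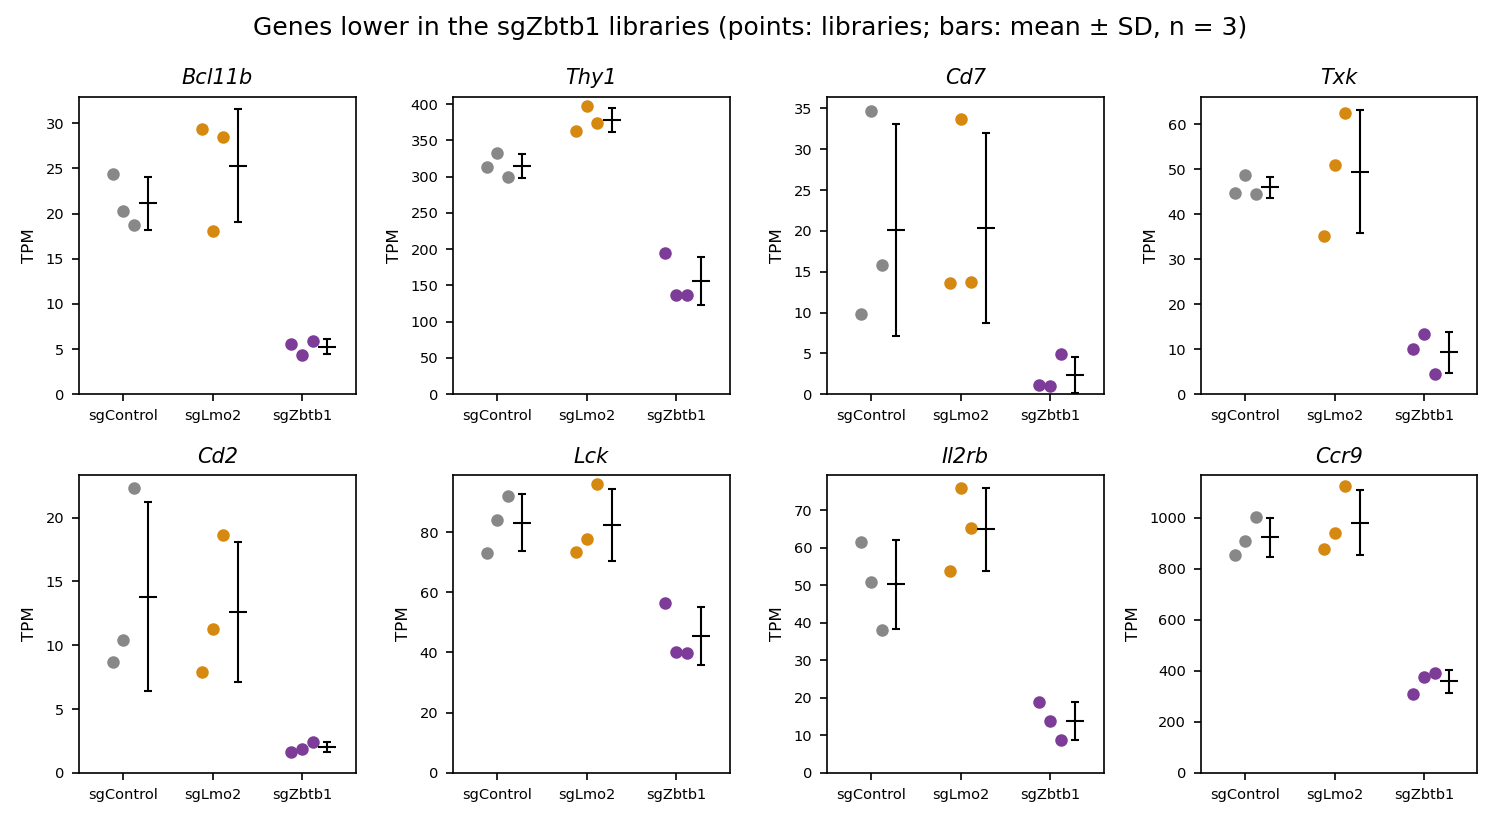
Levels of 8 genes lower in sgZbtb1, with 1 point per library for sgControl, sgLmo2 and sgZbtb1 and the mean ± SD (n = 3) beside them, each panel in TPM from 0. In every panel the 3 sgZbtb1 points lie below the 3 sgLmo2 points.

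Constant regions of the T-cell receptor moved with these genes. The class was taken from the annotation in the table after the values were seen and was given no test as a group. Of its 8 genes 5 were tested, and all 5 had an adjusted p under 0.05 and were lower in sgZbtb1. *Tcrg-C4*, a gamma chain constant region, was at 389, 371 and 386 TPM in sgLmo2 and 209, 210 and 241 TPM in sgZbtb1 (log2 fold change -0.80, standard error 0.10, limma adjusted p = 9.82e-10). *Trdc*, the delta chain constant region, was at 395, 377 and 434 TPM against 291, 255 and 290 TPM (log2 fold change -0.53, limma adjusted p = 2.9e-05). The gamma constant genes resemble each other, so reads may be split among *Tcrg-C1*, *Tcrg-C2* and *Tcrg-C4*. The alpha chain gene *Trac*, at 26.9 to 32.3 and 10.5 to 20.7 TPM, lost its call in 5 of 6 omissions of a library (all but sgZbtb1 replicate 1). Without sgZbtb1 replicate 2, *Tcrg-C2* also lost its call (adjusted p = 0.0537), which left 3 of the 5.

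Genes of innate lymphoid and NK cells, relatives of T cells that grow from the same progenitors, gave 3 lower and no higher among 9 tested of 17, at a median log2 fold change of -0.60. The 3 were *Il2rb*, *Id2* and *Il7r*, the last described below. These 3 are 33.3% of those tested, where the background of lower genes was 3.43%. At an unadjusted p under 0.05 there were 5 lower and 0 higher, beside 2080 of all 11553 genes in either direction. *Il2rb*, the chain shared by the IL-2 and IL-15 receptors, was at 53.7, 75.8 and 65.2 TPM in sgLmo2 and 19.0, 13.9 and 8.84 TPM in sgZbtb1, 4.67 times less on the ratio of means (log2 fold change -2.19, standard error 0.24, limma adjusted p = 2.41e-11). *Id2*, an inhibitor of E proteins, was at 154, 158 and 154 TPM against 81.0, 129 and 103 TPM (log2 fold change -0.60, limma adjusted p = 0.000774). *Tbx21*, *Ncr1*, *Eomes* and *Gzmb*, which mark mature NK cells, had no read in any of the 6 libraries.

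Cytokine receptors and the JAK-STAT pathway carry the IL-7 and Flt3 ligand signals of this culture. All 22 genes were tested, and 3 (13.6%) passed, each lower, where the background of lower genes was 3.43%. Of the 22, 20 had a negative log2 fold change, with a median of -0.24 beside -0.04 over all genes tested. The survival kinase gene *Pim2*, which STAT5 induces, was at 159, 226 and 259 TPM in sgLmo2 and 84.9, 116 and 101 TPM in sgZbtb1 (log2 fold change -1.07, standard error 0.13, limma adjusted p = 1.1e-09). *Il7r*, the IL-7 receptor, was at 192, 216 and 210 TPM against 158, 167 and 143 TPM (log2 fold change -0.40, limma adjusted p = 0.0144), and *Il2rg*, its partner chain, at 82.6, 99.2 and 106 TPM against 69.8, 59.3 and 61.9 TPM (limma adjusted p = 0.00709). In sgControl *Il7r* was at 154 to 175 TPM, nearer the sgZbtb1 level. With a library left out the count was 1 without sgLmo2 replicate 3 and 5 without sgLmo2 replicate 1, *Il7r* lost its call without sgLmo2 replicate 2 or 3 or sgZbtb1 replicate 3 (adjusted p up to 0.118), and *Il2rg* without sgLmo2 replicate 3 (0.07498).

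B-lineage genes went in both directions. Of 25 genes 15 were tested and 5 passed (33.3%, beside 5.55% of all genes), 3 lower and 2 higher in sgZbtb1. The median log2 fold change was 0.00. *Ly6d* (ENSMUSG00000034634; chromosome 15, 74762056 to 74763620), a surface protein of LPs primed for the B lineage, was at 179, 223 and 198 TPM in sgLmo2 and 27.9, 36.8 and 23.6 TPM in sgZbtb1, 6.80 times less (log2 fold change -2.74, standard error 0.15, limma adjusted p = 2.43e-25). *Pax5*, which commits cells to the B lineage, was low in both, at 9.05, 18.1 and 6.57 TPM against 0, 0.956 and 1.47 TPM (limma adjusted p = 0.00016), with every sgZbtb1 library at 3 reads or fewer.

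*Pou2f2*, which encodes the octamer factor Oct2, went the other way, at 26.0, 29.8 and 24.7 TPM in sgLmo2 and 58.1, 89.4 and 65.8 TPM in sgZbtb1 (log2 fold change 1.35, standard error 0.19, limma adjusted p = 1.49e-07). *Dntt*, the terminal transferase that adds bases at antigen receptor joints, was at 50.9, 65.0 and 51.5 TPM against 70.9, 94.7 and 117 TPM (log2 fold change 0.72, standard error 0.16, limma adjusted p = 0.00113). Without sgZbtb1 replicate 3, its highest library, the adjusted p of *Dntt* was 0.0819. The sgControl levels of both genes, 44.0 to 51.5 and 71.4 to 85.1 TPM, were above those of sgLmo2.

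Among 14 tested of 23 myeloid and dendritic genes 5 passed (35.7%, beside 5.55% of all genes), 3 higher and 2 lower. The median log2 fold change of the 14 was 0.09. *Irf8* (ENSMUSG00000041515; chromosome 8, 120736358 to 120756694), a factor of dendritic cells, monocytes and early B cells, had the smallest adjusted p of the higher genes named here. It was at 50.9, 58.2 and 61.9 TPM in sgLmo2, at 137, 164 and 158 TPM in sgZbtb1 and at 111, 120 and 116 TPM in sgControl, so that the 3 groups did not overlap and sgControl lay between the others. The sgZbtb1 mean was 2.69 times the sgLmo2 mean (log2 fold change 1.41, standard error 0.14, limma adjusted p = 4.72e-13). *Cebpa*, which directs cells to the granulocyte lineage, was at 7.35, 3.91 and 3.83 TPM against 11.2, 21.5 and 11.8 TPM (limma adjusted p = 0.0215), and *Spi1*, a factor of myeloid cells named after its value was seen, at 100, 125 and 93.7 TPM against 141, 150 and 137 TPM (limma adjusted p = 0.0226).

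The lower members were *Ccr9* and *Tyrobp*. *Ccr9*, the chemokine receptor with which lymphoid progenitors and plasmacytoid dendritic cells find the thymus and gut, was at 879, 939 and 1126 TPM in sgLmo2 and 308, 378 and 392 TPM in sgZbtb1 (log2 fold change -1.45, standard error 0.09, limma adjusted p = 1.28e-23). *Tyrobp*, an adaptor of myeloid and NK receptors, was at 163, 212 and 196 TPM against 132, 104 and 116 TPM (log2 fold change -0.69, limma adjusted p = 2.09e-05). *Elane*, *S100a8*, *S100a9* and *Csf3r*, which define granulocytes, had no read in any of the 6 libraries. Only 3 members of this list passed without sgLmo2 replicate 3, sgZbtb1 replicate 2 or sgZbtb1 replicate 3. *Cebpa* and *Spi1* lost their calls in 4 and 5 of the 6 omissions.

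**Figure D3:**
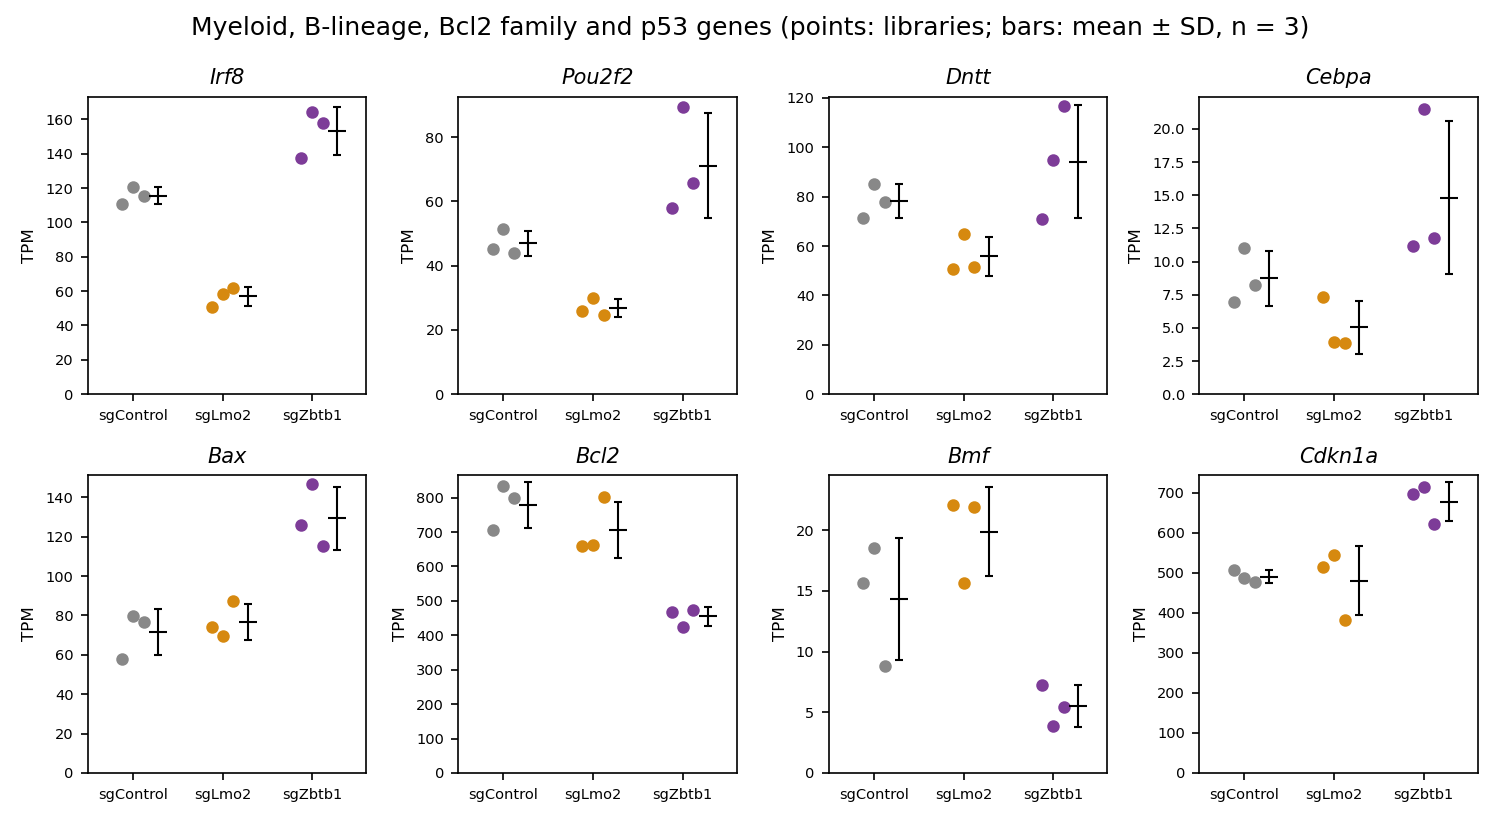
Levels of 8 genes by library in TPM, each panel from 0, with the mean ± SD (n = 3) of sgControl, sgLmo2 and sgZbtb1 beside the points. For *Irf8* and *Pou2f2* the sgControl points lie between the groups, and for *Bax*, *Bcl2* and *Cdkn1a* the sgControl and sgLmo2 points overlap while those of sgZbtb1 stand apart.

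Among 21 genes of the Lmo2 complex and its partners, 17 were tested and 4 passed (23.5%, beside 5.55% of all genes). Of these, 2 were higher and 2 lower in sgZbtb1, and the median log2 fold change of the 17 was -0.07. The higher ones were *Zbtb1* itself and *Lyl1*, the basic helix-loop-helix factor that binds Lmo2, at 189, 161 and 160 TPM in sgLmo2 and 232, 240 and 213 TPM in sgZbtb1 (log2 fold change 0.42, standard error 0.11, limma adjusted p = 0.00649). The lower ones were *Runx1* and *Lmo4*, another LIM-only adaptor, at 162, 222 and 232 TPM against 122, 168 and 173 TPM with overlap (limma adjusted p = 0.0253). Leaving out sgLmo2 replicate 2 or 3 or sgZbtb1 replicate 1 ended the call of *Lmo4* (adjusted p up to 0.323), and leaving out sgZbtb1 replicate 2 ended that of *Lyl1* (0.0563).

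Of 23 stem and progenitor genes 18 were tested and 6 passed (33.3%, beside 5.55% of all genes), 3 higher and 3 lower. The median log2 fold change was -0.07. *Cd34*, a surface mucin of progenitors, was at 322, 252 and 230 TPM in sgLmo2 and 361, 378 and 367 TPM in sgZbtb1 (log2 fold change 0.47, standard error 0.10, limma adjusted p = 0.000529). *Hoxa9*, a homeobox factor of progenitors, was at 688, 673 and 776 TPM against 549, 513 and 566 TPM (log2 fold change -0.39, standard error 0.08, limma adjusted p = 0.00049). Both Myc genes passed in opposite directions: *Mycn* was at 148, 160 and 167 TPM against 118, 106 and 125 TPM (limma adjusted p = 0.013), and *Myc*, named after its value was seen, at 31.1, 21.0 and 32.3 TPM against 48.6, 54.5 and 39.8 TPM (limma adjusted p = 0.0169). Each lost its call under 3 of the 6 omissions, with adjusted p up to 0.106 and 0.153. The list held 3 called members without sgLmo2 replicate 2 or sgZbtb1 replicate 2.

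The Bcl2 family decides whether a cell releases the mitochondrial signals of apoptosis. Of its 18 genes 12 were tested and 4 passed (33.3%, beside 5.55% of all genes), 2 higher and 2 lower. The median log2 fold change was -0.01. *Bcl2* (ENSMUSG00000057329; chromosome 1, 106538178 to 106714274), the founding survival gene, was at 659, 661 and 801 TPM in sgLmo2 and 467, 423 and 475 TPM in sgZbtb1 (log2 fold change -0.63, standard error 0.08, limma adjusted p = 2.41e-08). *Bax*, a pore-forming killer that p53 induces, was at 74.1, 69.4 and 87.1 TPM against 126, 147 and 115 TPM (log2 fold change 0.74, standard error 0.14, limma adjusted p = 6.32e-05). Its partner *Bak1* was at 51.5, 60.1 and 41.6 TPM against 76.5, 92.3 and 69.7 TPM (limma adjusted p = 0.00816; up to 0.114 without sgLmo2 replicate 3 or sgZbtb1 replicate 2).

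*Bmf*, a BH3-only protein that favours apoptosis, ran against *Bax* and *Bak1*, at 22.1, 15.6 and 21.9 TPM in sgLmo2 and 7.26, 3.82 and 5.40 TPM in sgZbtb1 (log2 fold change -1.70, standard error 0.36, limma adjusted p = 0.000731). Of 30 p53 targets 27 were tested and 2 passed, *Bax* and *Cdkn1a*, both higher. *Cdkn1a*, the cell cycle inhibitor p21, was at 515, 545 and 382 TPM against 697, 715 and 623 TPM (log2 fold change 0.51, standard error 0.09, limma adjusted p = 2.77e-05). The 2 called are 7.41% of those tested, beside 5.55% for all genes, and the list's median log2 fold change was -0.01.

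Among the 10 protein-coding genes that were lower by the most, those not yet described were *Tcf7l2*, *Lgals3*, *Itpr2*, *Cdh1*, *Drc1* and *Cpne2*. *Tcf7l2*, a Wnt pathway factor related to *Tcf7*, was at 10.7, 13.7 and 14.8 TPM in sgLmo2 and 1.68, 0 and 1.47 TPM in sgZbtb1 (log2 fold change -2.90, standard error 0.50, limma adjusted p = 1.88e-05). All 3 sgZbtb1 libraries of *Tcf7l2* were at or under the floor, so its fold change depends on the pseudocount (-4.32 with 0.1). *Lgals3*, which encodes galectin-3, was at 31.7, 48.4 and 38.9 TPM against 5.59, 6.69 and 2.95 TPM (log2 fold change -2.78, limma adjusted p = 4.11e-10). *Cdh1*, E-cadherin, was at 44.1, 37.2 and 39.4 TPM against 6.14, 6.69 and 5.40 TPM (log2 fold change -2.54, limma adjusted p = 5.94e-10). The inositol trisphosphate receptor gene *Itpr2* was at 30.0 to 44.9 TPM and 4.47 to 5.26 TPM, *Drc1* at 26.4 to 33.9 and 2.87 to 8.84 TPM, and *Cpne2* at 32.9 to 42.5 and 4.78 to 10.1 TPM. None of these 6 genes lost its call when a library was left out.

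Of the 10 genes that were higher by the most, *Syne2*, a protein of the nuclear envelope, was at 3.39, 1.47 and 0.547 TPM in sgLmo2 and 12.8, 15.8 and 15.7 TPM in sgZbtb1 (log2 fold change 2.62, standard error 0.46, limma adjusted p = 3.19e-05). *D1Ertd622e* was at 0.565, 0.488 and 2.74 TPM against 15.6, 14.8 and 6.87 TPM, and *Il6ra*, the IL-6 receptor, at 0, 1.47 and 2.19 TPM against 7.26, 9.08 and 14.2 TPM (limma adjusted p = 0.000136 and 0.000708). In sgLmo2, *Syne2*, *D1Ertd622e* and *Il6ra* were each at or under the floor in 2 of the 3 libraries, so their fold changes depend on the pseudocount (with 0.1, log2 fold changes of 3.28, 3.51 and 3.80). *Tmem119* was the most abundant besides *Irf8*, at 27.7, 24.4 and 35.6 TPM against 75.4, 81.3 and 76.6 TPM (log2 fold change 1.40, standard error 0.18, limma adjusted p = 1.39e-08). *Fam217b*, *Dzip1*, *Tesc*, *D630045J12Rik* and *Rgs1* completed the set with adjusted p of 0.00462 to 0.0333, and each lost its call in 1 to 6 of the 6 omissions of a library.

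The remaining lists held few calls. Neither the 35 DNA replication genes nor the 33 mitosis genes had a member with a limma adjusted p under 0.05. At an unadjusted p under 0.05 there were 6 higher and 0 lower replication genes and 7 higher and 2 lower mitosis genes. Over all genes, 2080 of 11553 had such a p. Of the replication and mitosis genes edgeR called 2 and 1 and DESeq2 0 and 2, all higher. Their median log2 fold changes were 0.11 and 0.10. The 9 MHC class II genes tested of 13 had no call in limma, edgeR or DESeq2 and none at an unadjusted p under 0.05. Interferon response genes gave 1 call among 19 tested (*Irf8*), the Atf4 amino acid response 1 among 24 (*Ddit4*, at 50.3 to 78.3 and 34.9 to 39.1 TPM), and the NCoR, Sin3 and HDAC corepressors 1 among 26 (*Hdac5*, at 46.9 to 68.5 and 24.0 to 34.9 TPM, limma adjusted p = 0.000841).

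Glycolysis gave 2 lower genes among 16 tested (12.5%, where the background of lower genes was 3.43%), *Gapdh* and *Pfkp*. Its median log2 fold change was -0.16. *Gapdh*, often used as a reference gene, was at 95.0, 87.5 and 99.2 TPM in sgLmo2 and 63.1, 52.6 and 59.4 TPM in sgZbtb1 (log2 fold change -0.68, standard error 0.15, limma adjusted p = 0.00116). Cholesterol synthesis gave 1 higher (*Ebp*) and 1 lower (*Hmgcs1*) among 22 tested, with a median log2 fold change of -0.27 and 15 of the 22 negative. At an unadjusted p under 0.05 there were 9 lower and 1 higher, beside 2080 of all 11553 genes in either direction. *Hmgcs1*, which makes HMG-CoA, was at 193, 169 and 230 TPM against 130, 126 and 132 TPM (limma adjusted p = 0.00019). *Ddit4*, *Pfkp* and *Ebp* each lost their calls without at least 1 library, *Ddit4* without sgLmo2 replicate 3 or sgZbtb1 replicate 2, *Pfkp* without sgLmo2 replicate 2, and *Ebp* without sgLmo2 replicate 2 or 3 or sgZbtb1 replicate 3. The number called in cholesterol synthesis was 4 without sgLmo2 replicate 1, and 1 without sgLmo2 replicate 2 or 3 or sgZbtb1 replicate 3.

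**Figure D4:**
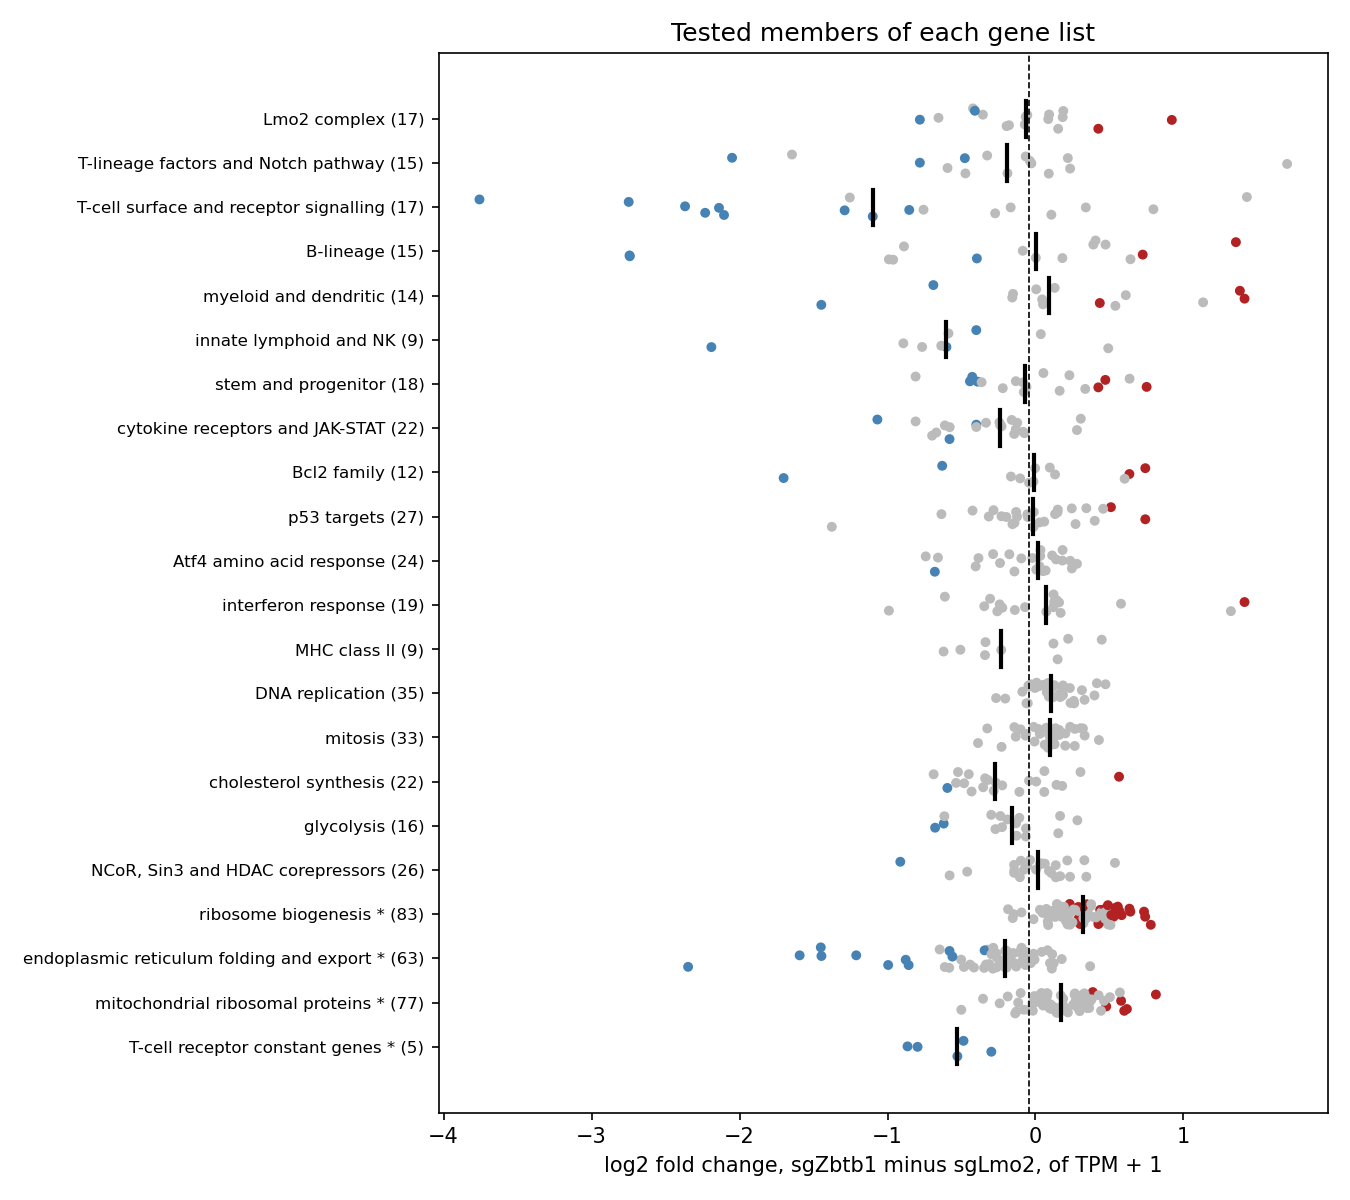
Log2 fold change of TPM + 1, sgZbtb1 minus sgLmo2, of each tested member of 22 gene lists (number tested in brackets), with calls at an adjusted p under 0.05 in red (higher) and blue (lower), other members in grey and the list median as a black bar; the dashed line is the median of all genes, -0.04. The T-cell surface list has the lowest median, -1.10, and the ribosome biogenesis list the highest, 0.32; lists marked with an asterisk were written after the values were seen.

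After the values were seen, 3 further lists were written, which carry no test and only describe these libraries. Ribosome biogenesis genes act in the nucleolus, where ribosomal RNA is made and assembled. All 83 in that list were tested, 78 had a positive log2 fold change, and 29 had an adjusted p under 0.05, each higher in sgZbtb1 (background 2.12%). The sgControl mean was nearer sgLmo2 in 26 of the 29. *Ncl*, which encodes nucleolin, was at 3594, 2935 and 3090 TPM in sgLmo2 and 4496, 4093 and 4438 TPM in sgZbtb1 (log2 fold change 0.44, standard error 0.07, limma adjusted p = 6.18e-07). *Dkc1*, the pseudouridine synthase dyskerin, was at 679, 665 and 622 TPM against 874, 990 and 1059 TPM (log2 fold change 0.57, standard error 0.08, limma adjusted p = 5.88e-08). The changes were small, from 0.23 to 0.78 among those called. The count of 29 was 15 without sgLmo2 replicate 2 or sgZbtb1 replicate 1 and 17 without sgZbtb1 replicate 3, and the median log2 fold change stayed between 0.25 and 0.37 in every alternative fit.

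Proteins of the mitochondrial ribosome, taken by gene name, gave 6 calls among 77 tested (7.79%), all higher, where the background of higher genes was 2.12%. The median log2 fold change was 0.17. *Mrpl12* was at 145, 141 and 124 TPM in sgLmo2 and 204, 199 and 218 TPM in sgZbtb1 (log2 fold change 0.60, limma adjusted p = 8.63e-05). That count was 2 to 7 with a library left out, lowest without sgZbtb1 replicate 1.

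Genes for folding and export of proteins in the endoplasmic reticulum ran in the other direction. Of 63, 11 (17.5%) were called, all lower in sgZbtb1, where the background of lower genes was 3.43%. There were 54 negative log2 fold changes and a median of -0.21. The list also held *Jchain*, which is itself secreted and is not a folding or export factor, and *Jchain* is among the 11. *Jchain*, which joins polymeric immunoglobulins, was at 1097, 1424 and 1503 TPM in sgLmo2 and 217, 318 and 256 TPM in sgZbtb1 (log2 fold change -2.35, standard error 0.09, limma adjusted p = 1.05e-34). *Xbp1*, the factor that expands the secretory machinery, was at 193, 214 and 176 TPM against 84.9, 116 and 92.3 TPM (log2 fold change -0.996, standard error 0.12, limma adjusted p = 2.65e-09). With 123 to 134 TPM, sgControl lay between the groups for *Xbp1*. *Pdia5*, *Calu* and *Herpud1* had log2 fold changes of -1.45, -1.59 and -0.88.

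The nearest genes of Zbtb1 ChIP-seq peaks, called by the authors in the same LPs without Notch stimulation, were then counted, as a description. Of the 11553 genes tested, 26.8% were the nearest gene of at least 1 of the 5898 peaks. The share was 43.2% of the 396 lower genes (Wilson 95% interval 38.4% to 48.1%) and 38.4% of the 245 higher genes (32.5% to 44.6%). Abundant genes have more peaks: among genes with a mean above 10 TPM the shares were 30.9% of all, 45.6% of the lower and 38.8% of the higher. With peaks within 10 kb of a start site they were 21.9% of all genes, 30.1% of the lower and 31.4% of the higher. Among genes with a mean above 10 TPM these were 25.5%, 32.0% (Wilson 95% interval 27.3% to 37.1%) and 32.6% (26.8% to 39.0%). Among the genes of the naming rule, those with the highest-scoring peaks were *Zbtb1* itself (258.6, at its promoter), *Runx1* (219.7, at a promoter) and *Bcl2* (136.3, at its promoter).

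Sequences of 5 peaks are shown because they had the highest scores when 1 peak was taken per called gene of the naming rule, the strongest within 100 kb of its start site that lay in an intron or between genes and whose central window overlapped no annotated exon. Each line gives 200 bases at the peak centre, from the plus strand of GRCm38 (mm10), with the Runx core TGTGGT or its reverse complement in capitals. *Lyl1* was higher in sgZbtb1 and the other 4 genes lower. The windows are chr8:84703433-84703632 in an intron of *Lyl1* (score 77.7), chr16:92800915-92801114 in an intron of *Runx1* (74.1), chr19:55768959-55769158 in an intron of *Tcf7l2* (63.8), chr15:78512038-78512237 between genes upstream of *Il2rb* (60.9), and chr6:146452500-146452699 in an intron of *Itpr2* (57.8).
*Lyl1*: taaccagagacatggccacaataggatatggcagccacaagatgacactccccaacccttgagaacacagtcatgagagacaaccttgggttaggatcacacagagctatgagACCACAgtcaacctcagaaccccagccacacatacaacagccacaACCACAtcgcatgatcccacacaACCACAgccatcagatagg
*Runx1*: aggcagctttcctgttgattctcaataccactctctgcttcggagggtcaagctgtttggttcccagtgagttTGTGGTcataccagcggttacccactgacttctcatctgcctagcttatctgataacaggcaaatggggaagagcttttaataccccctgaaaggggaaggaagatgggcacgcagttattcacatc
*Tcf7l2*: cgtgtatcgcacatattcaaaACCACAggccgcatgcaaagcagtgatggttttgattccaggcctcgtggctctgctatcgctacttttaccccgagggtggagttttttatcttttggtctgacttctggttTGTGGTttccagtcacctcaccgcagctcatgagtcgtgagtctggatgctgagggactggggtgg
*Il2rb*: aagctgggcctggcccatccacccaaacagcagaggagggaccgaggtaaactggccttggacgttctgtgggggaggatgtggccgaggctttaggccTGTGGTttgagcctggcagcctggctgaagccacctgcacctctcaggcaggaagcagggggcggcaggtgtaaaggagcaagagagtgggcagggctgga
*Itpr2*: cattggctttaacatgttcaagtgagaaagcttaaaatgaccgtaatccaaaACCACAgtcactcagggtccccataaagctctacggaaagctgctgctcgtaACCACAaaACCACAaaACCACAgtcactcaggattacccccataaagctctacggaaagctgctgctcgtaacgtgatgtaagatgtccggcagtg
The 5 windows held 3, 1, 2, 1 and 4 matches to TGTGGT on either strand. Of 5890 Zbtb1 peak windows of the same length, 41.3% held at least 1 match. A match describes the letters and is not shown to be a bound site.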

How the data were processed

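QuantSeq 3′ libraries were trimmed with fastp and aligned to mm10 with STAR, and the authors scaled the read count of each gene to the same total in every library (a CPM, which they call TPM). The whole read counts were recovered from the deposited values (100% of values within 0.1 of a read), and 1 row without a gene identifier was left out. The deposited table also holds group means, SDs, p-values and log2 fold changes of the authors' comparisons, which were not used. Zbtb1 ChIP-seq peaks were called by the authors on Bowtie 1.1.1 alignments with HOMER and IDR, and their deposited peak score is a signal from pooled replicates.

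Levels were tested as log2(TPM + 1) in limma 3.58.1 (R 4.3.3, eBayes with trend) on the 6 libraries, with Benjamini-Hochberg adjustment over 11553 genes, a threshold of 0.05 and the contrast sgZbtb1 minus sgLmo2. Fits with edgeR 4.0.16 and DESeq2 1.42.0 used the recovered reads. The fits were tested on simulated data. Genes were annotated from GENCODE vM21, which held 11546 of the 11553. Named genes were the targeted genes, *Ebf1* and those the paper names, then up to 10 protein-coding genes in each direction with the largest log2 fold change among genes that passed the test, did not overlap between groups and exceeded 10 TPM in one group mean, then up to 4 members of each list with the smallest adjusted p. The genes, lists and tests were chosen with earlier results of these data known. Single-gene results of 2 genes are not reported here.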

Additional observations from a re-analysis of the deposited data

How the results depend on the processing

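None of the 641 called genes changed direction in an alternative that tested it; with a mean above 10 TPM required, 568 of them were tested. The counts depended on the fit: a t-test of unlogged values called 0 genes after adjustment (1580 at an unadjusted p under 0.05), DESeq2 called 426 and edgeR 659, and leaving out 1 library gave 379 to 664 called genes and 182 to 262 DEGs. Size factors by the median of ratios moved the share of lower genes from 396 of 641 to 349 of 661. With the replicate block the count was 729. Whether the replicate numbers pair the libraries was not settled. The correlations of same-numbered deviations were small, at 0.0208, 0.0166 and 0.0120, but every library correlated best with its own number. Among uncalled genes the sign of the log2 fold change turned for *Tcf7* with a pseudocount of 0.1 (0.54) and for *Gata3* in edgeR (0.0038) and DESeq2 (0.0042). With 1 library left out, the log2 fold changes of uncalled genes ran from -0.29 to 0.42 for *Lmo2*, from -0.48 to 0.57 for *Tcf7* and from -0.21 to 0.19 for *Gata3*. The causes were not tested. At 3 libraries per group and these depths, genes of a few reads, such as *Tcf7*, could not be compared.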
